A study of Daphnia magna with 9 samples.

Results

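The comparison described here is the effect of food in Daphnia magna daphnids whose DNMT3.1 gene had been mutated. It rests on 6 of the 9 libraries of the series, chosen by their labels alone: 3 libraries from starved mutant daphnids and 3 from nutrient rich mutant daphnids. The mutant was a single line with frameshift edits on both copies of DNMT3.1, and starved daphnids received 8-fold less Chlorella. Every library pooled 5 whole females of day 12 at clutch 2, after the brood eggs had been taken out. The remaining 3 libraries came from starved wild type daphnids with the same reduction of food. They entered the fit as a separate group and are given only as a level beside some results. Nutrient rich wild type daphnids were not analysed here, so whether a change was particular to the mutant was not tested.

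Daphnia magna is a planktonic crustacean that filters algae and reproduces by parthenogenesis. A well fed female alternates moulting with egg laying, and its fat cells make vitellogenin, the yolk precursor that the ovary takes up. Under food shortage daphnids are known to lay fewer eggs and to draw on reserves. Whole-body RNA mixes gut, fat cells, muscle, eye, ovary and epidermis, so fewer cells of a type and less RNA per cell cannot be told apart in any result below.

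DNMT3.1 (Dapma7bEVm006722t1), the mutated gene, was read in all libraries. Its level, as read counts scaled to a common library size (CPM), was 87.6, 40.0 and 61.7 in the starved mutant and 10.8, 4.40 and 9.69 in the nutrient rich mutant, and averaged 91.9 in starved wild type daphnids. A frameshift need not remove the transcript, so these levels do not check the genotype. The mutant libraries held between 9613033 and 11806614 counted reads. Markers of muscle, eye, neurons, gut, fat cells, germ line and epidermis were read in every library.

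Nutrient rich library 2 stood apart from its group. Across features its log2 CPM correlated with nutrient rich libraries 1 and 3 at r = 0.893 and 0.908, against 0.956 between those libraries and 0.954 to 0.971 within the starved mutant. Its 10 most abundant features took 19.5% of its reads, against 11.7% and 12.9% in libraries 1 and 3. Of 17748 genes tested, 3560 lay more than 2-fold outside the range of the other nutrient rich libraries, against 585 for library 1 and 295 for library 3. The mitochondrial NADH dehydrogenase subunit 1 (Dapma7bEVm011496t1) stood at 59580 CPM there and at 12240 and 12580 CPM in libraries 1 and 3. The unnamed gene Dapma7bEVm646290t1 stood at 33810 CPM, against 1721 and 3892 CPM. Many results are therefore given with and without it. For some lists only the counts with it are given, which does not show that they were independent of it.

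Of 18675 features tested, 2078 (11.1%) were higher and 2241 (12.0%) were lower in the starved mutant at an adjusted p under 0.05 (edgeR quasi-likelihood test, Benjamini-Hochberg) and a change of at least 1.5-fold, which is what called means below. With 1 feature kept for each gene, 1980 of 17748 genes (11.2%) were called higher and 2163 (12.2%) lower. The changes were large in both directions: 570 genes rose and 607 fell at least 4-fold, and 123 rose and 186 fell at least 16-fold. A name was carried by 1013 of the 1980 genes that rose and 1531 of the 2163 that fell, against 10532 of all 17748 tested. Names, on which the lists rest, thus covered a smaller share of the genes that rose than of those that fell. The CPM of the groups did not overlap in 40.3% of the features tested, so a lack of overlap was common.

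Without nutrient rich library 2 the counts grew to 2761 features higher (14.8%) and 2688 lower (14.4%), or 2629 genes (14.8%) and 2577 genes (14.5%). Of the genes called with all libraries, 1831 of 1980 that rose and 1917 of 2163 that fell were called again, and 0 changed direction. The split between directions depended on the scaling. TMM scaling put the median gene at a log2 fold change of -0.07, with 48.1% of the called features higher. Scaling by library totals moved the median over features by 0.36 on the log2 scale, with 3446 features higher and 1138 lower, or 75.2% higher. Features called higher took 18.2% to 20.6% of the reads of starved and 4.79% to 6.44% of those of nutrient rich libraries, and features called lower took 16.4% to 18.4% and 36.9% to 39.7%. List directions below are therefore relative to the median gene. Counts given with library totals are to be read against the split of 3446 higher and 1138 lower.

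**Figure D1:**
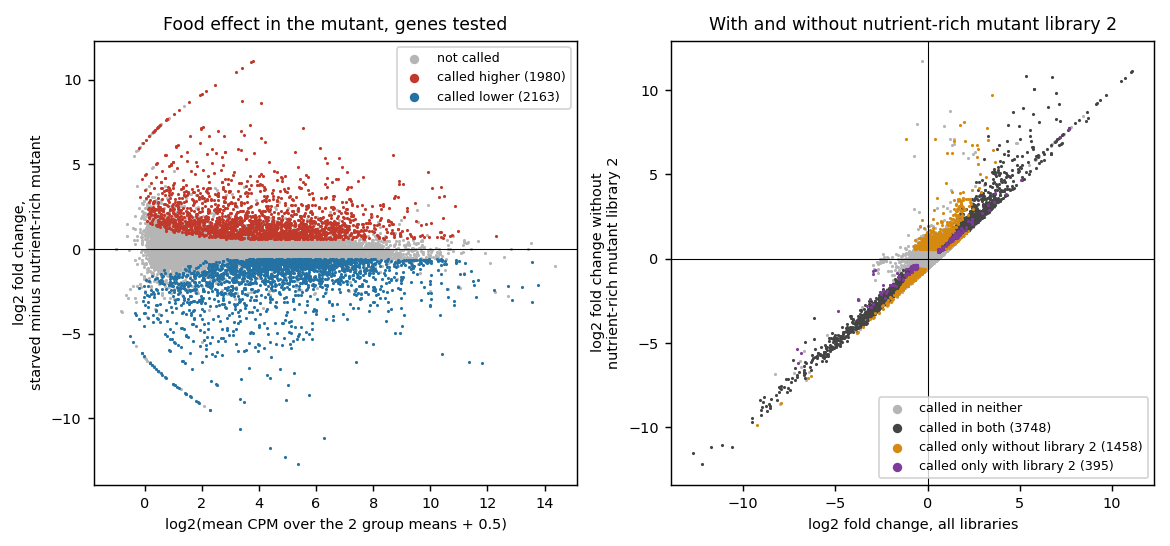
Left, log2 fold change (starved minus nutrient rich mutant) of each of 17748 genes against its mean level, with 1980 genes called higher in red and 2163 called lower in blue; the curved edges are genes with 0 counts in every library of 1 group. Right, the same log2 fold change with all libraries and without nutrient rich library 2, where 1831 genes were higher and 1917 lower both ways, 798 and 660 only without the library, and 149 and 246 only with it.

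Grouped by the names the deposited table gives, 44 lists of genes covered 2113 of the genes tested. Yolk proteins had the lowest median, at -1.95 on the log2 scale, and cuticle proteins the highest, at 1.65. The lists in which the largest shares fell were yolk proteins, cytosolic ribosomal proteins, haemoglobins, ferritins and glycolysis. Those in which the largest shares rose were opsins and phototransduction, SLC13 transporters, muscle, cuticle proteins and ecdysteroid signalling. No member of the nuclear-encoded oxidative phosphorylation list was called in either direction. List counts below are to be read against the shares of all genes, 11.2% higher and 12.2% lower.

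**Figure D2:**
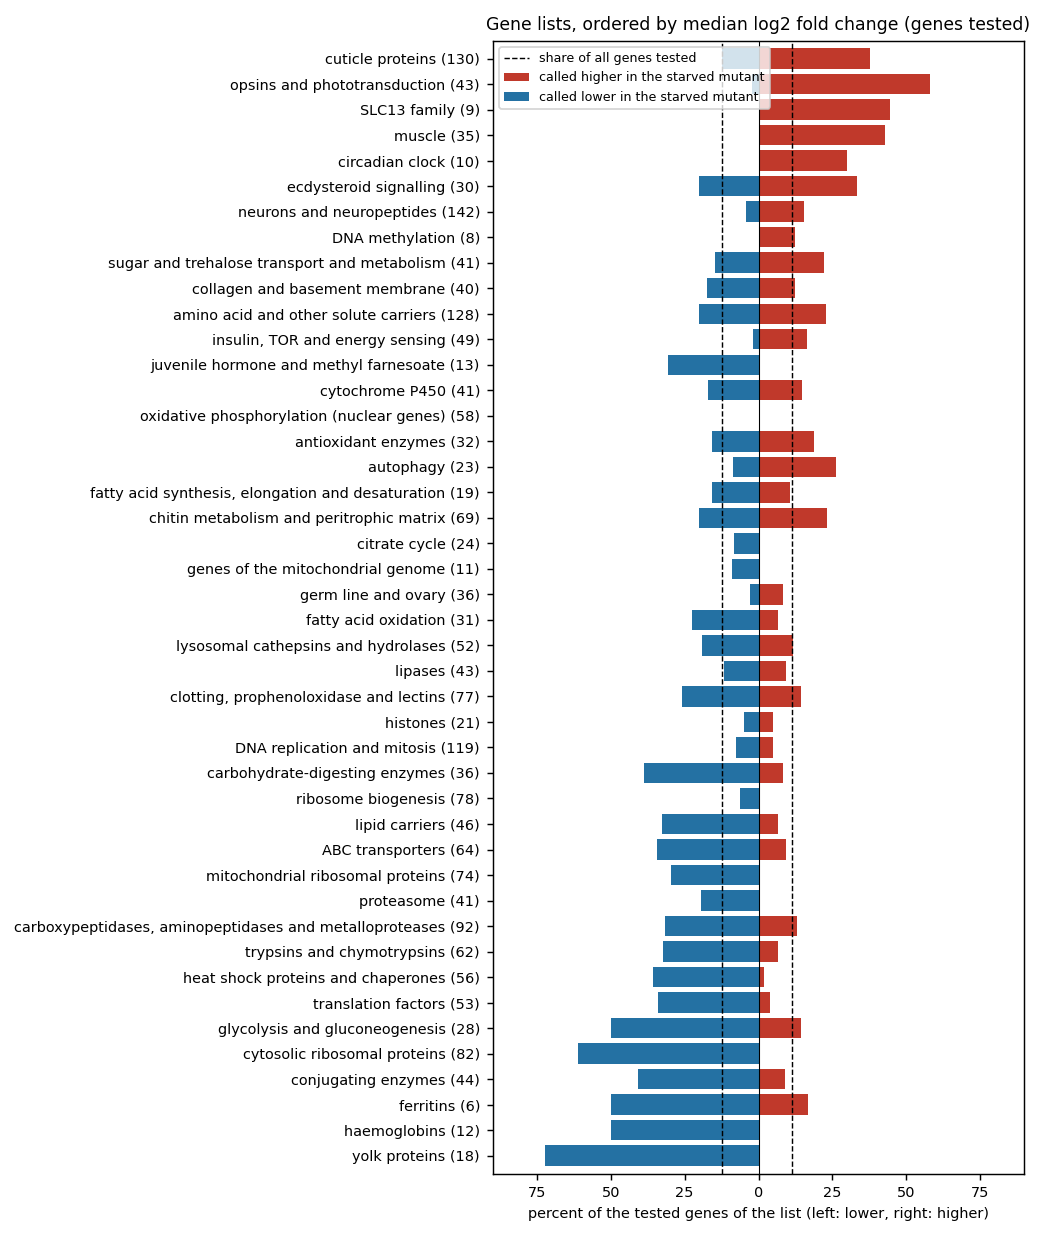
Percent of the tested genes of each of 44 lists that were called lower (blue, left) or higher (red, right) in the starved mutant, ordered by the list's median log2 fold change, with the number of genes tested in brackets. The dashed lines mark the shares of all genes tested, 12.2% lower and 11.2% higher.

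The yolk proteins fell most. Of 18 vitellogenin genes tested, 13 fell and 0 rose, with a median log2 fold change of -1.95 (-1.75 without nutrient rich library 2, where the counts were 13 and 0). Their summed level was 15790, 17430 and 16150 CPM in the starved mutant and 73060, 96050 and 84370 CPM in the nutrient rich mutant, so that the groups were well apart. Most of these genes encode a vitellogenin fused to superoxide dismutase, the main yolk precursor of Daphnia. The most abundant, Dapma7bEVm020225t1, stood at 4604, 6007 and 5106 CPM starved and at 21740, 21410 and 24170 CPM nutrient rich. It fell by 2.10 on the log2 scale (SE 0.17, edgeR adjusted p = 0.00012).

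The vitellogenin gene vtg1 (Dapma7bEVm024402t1) stood at 2844, 3797 and 3283 CPM starved and at 12420, 19520 and 14290 CPM nutrient rich, and fell by 2.22 (SE 0.22, adjusted p = 0.00025). A deeper fall was seen in Dapma7bEVm002960t1, with 3231, 1767 and 2334 CPM against 17250, 26860 and 20860 CPM, by 3.15 (SE 0.27, adjusted p = 0.00013). The steepest was Dapma7bEVm020442t1, at 38.75, 32.49 and 38.95 CPM against 1832, 3843 and 2453 CPM, which fell by 6.21 (SE 0.39, adjusted p = 3.9e-05). These genes share a name, and how alike their sequences are was not examined. How reads that match several genes were shared out was not stated, so the values of single genes are uncertain. In the starved wild type the summed level lay between those of the mutant groups, at 36070 to 46910 CPM.

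Several unnamed genes were as abundant as the vitellogenins and fell with similar size. Dapma7bEVm630088t1 stood at 82.37, 57.98 and 64.42 CPM starved and at 4936, 10000 and 6518 CPM nutrient rich, and fell by 6.71 (SE 0.42, adjusted p = 3.9e-05). Dapma7bEVm646072t1 fell by 2.40 (SE 0.22) and Dapma7bEVm638540t1 by 1.83 (SE 0.26). The files give no name for them.

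Genes that carry lipid fell more often than they rose. Of 46 tested, 15 fell (32.6%, against 12.2% of all genes) and 3 rose (6.52%, against 11.2%). The counts were 16 and 4 without nutrient rich library 2. Fatty acid-binding protein, muscle-like (Dapma7bEVm000432t1), which binds fatty acids in the cell, stood at 558, 263 and 373 CPM starved and at 2772, 4014 and 3009 CPM nutrient rich, and fell by 3.04 (SE 0.32, adjusted p = 0.00034). Microsomal triglyceride transfer protein (Dapma7bEVm000284t1), which loads lipid onto lipoproteins, fell by 1.64 (SE 0.18, adjusted p = 0.00038). StAR-related lipid transfer protein 13 (Dapma7bEVm015020t1) rose by 1.06 (SE 0.15, adjusted p = 0.0013). The most abundant carrier, a retinoid- and fatty acid-binding glycoprotein (Dapma7bEVm009632t1), stood at 7916, 10080 and 8817 CPM starved and at 11570, 21320 and 12910 CPM nutrient rich. Its fall by 0.77 (SE 0.23, adjusted p = 0.038) rested on nutrient rich library 2, without which it was 0.45 and not called. The call was also lost without any 1 of the starved mutant libraries.

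Of 36 genes of the germ line and ovary, 3 were higher (8.33%, against 11.2% of all genes) and 1 lower (2.78%, against 12.2%). Without nutrient rich library 2 the counts were 8 and 2, where 14.8% of all genes were called higher and 14.5% lower. The number higher was 1 without starved library 3. The vitellogenin receptor (Dapma7bEVm009604t1), through which the oocyte takes up yolk, was the member that fell, at 34.1, 36.9 and 38.5 CPM against 69.6, 103 and 63.2 CPM, by 1.10 (SE 0.18, adjusted p = 0.0027). A more abundant gene of the same name (Dapma7bEVm000342t1), picked out after its value was seen, averaged 1029 CPM starved and 1087 CPM nutrient rich and was not called (log2 fold change -0.08). Tudor domain-containing protein 1 (Dapma7bEVm010022t1), a germ granule protein, rose by 0.83 (SE 0.17, adjusted p = 0.0066). The summed level of the list was 2929, 3142 and 2978 CPM starved, and 2214, 5627 and 2111 CPM nutrient rich. Library 2 of the nutrient rich group held more than both of its fellows together. The same library also held 7324 CPM of DNA replication and mitosis genes, against 3677 and 3295 CPM in libraries 1 and 3, and 10280 CPM of ribosome biogenesis genes, against 5704 and 5070 CPM. The part of ovary content in the difference of this library was not tested.

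Of 119 genes of DNA replication and mitosis, 6 were called higher and 9 lower, shares below those of all genes, and without nutrient rich library 2 the counts were 13 and 6. The count called lower was 4 without any 1 of the starved mutant libraries, and the count called higher was 3 without starved library 3. DNA ligase 1-like (Dapma7bEVm024353t1), which seals nicks in replicating DNA, fell by 1.58 (SE 0.23, adjusted p = 0.0015), and DNA topoisomerase 2-binding protein 1-B (Dapma7bEVm018485t1) rose by 2.06 (SE 0.26, adjusted p = 0.00081).

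**Figure D3:**
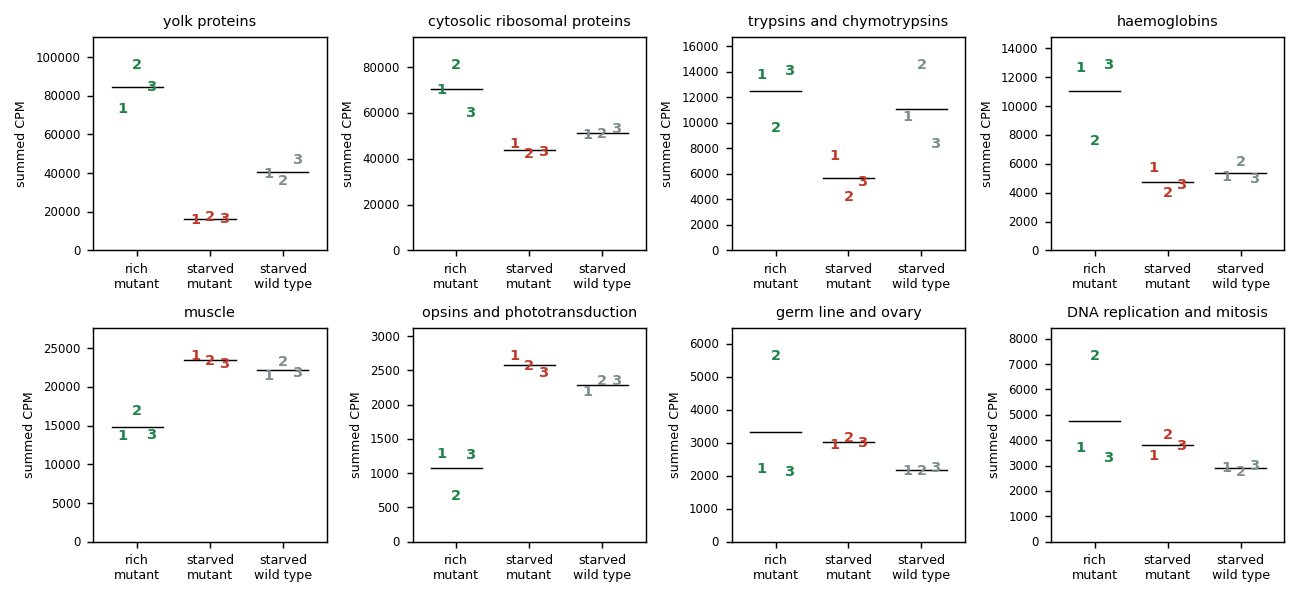
Summed CPM of the tested genes of 8 lists in each library, with the digit giving the library number and the line the mean of the 3 libraries. Yolk proteins stood at 15790 to 17430 CPM in the starved and 73060 to 96050 CPM in the nutrient rich mutant, and nutrient rich library 2 stands apart in the germ line and replication lists.

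Proteases and carbohydrate-digesting enzymes were called lower more often than higher, and each family held genes that rose. Of 62 trypsins and chymotrypsins, the main proteases of the gut, 20 fell and 4 rose (27 and 4 without nutrient rich library 2, and 14 and 9 with library totals). The median of these genes, relative to the median gene, was -0.48 with library totals and -0.44 with TMM scaling. Their summed level was 7440, 4166 and 5356 CPM starved and 13730, 9585 and 14090 CPM nutrient rich. The trypsin Dapma7bEVm015180t1 stood at 194, 146 and 147 CPM against 2370, 2275 and 2548 CPM, and fell by 3.88 (SE 0.23, adjusted p = 3.2e-05). The trypsin Dapma7bEVm016630t1 fell from 857, 1092 and 993 CPM to 46.8, 34.0 and 43.2 CPM, by 4.57 (SE 0.27, adjusted p = 3.2e-05). In the opposite direction, chymotrypsinogen 2-like (Dapma7bEVm008183t1) rose by 1.31 (SE 0.14, adjusted p = 0.00040).

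The trypsin Dapma7bEVm010425t1, known as epsilonTry, showed how much libraries could differ within a group. It stood at 849, 264 and 481 CPM starved and at 1419, 319 and 1224 CPM nutrient rich. With nutrient rich library 2 at 319 CPM the groups overlapped, and the log2 fold change of -0.90 (SE 0.56) did not pass the test (adjusted p = 0.29). Without that library it was -1.31 and was called.

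Of 92 carboxypeptidases, aminopeptidases and metalloproteases, 29 fell and 12 rose. The count that fell was 19 without starved library 3, and with library totals 20 were lower and 20 higher. Relative to the median gene, the list's median was -0.44 with library totals and -0.43 with TMM scaling. Aminopeptidase N (Dapma7bEVm000809t1) stood at 82.2, 44.8 and 59.8 CPM starved and at 560, 919 and 710 CPM nutrient rich, and fell by 3.55 (SE 0.32, adjusted p = 0.00017). Another aminopeptidase N gene (Dapma7bEVm001715t1) went the other way, at 226, 262 and 245 CPM against 50.1, 57.5 and 62.0 CPM, a rise of 2.11 (SE 0.14, adjusted p = 4.8e-05). Carboxypeptidase B-like (Dapma7bEVm001565t1) fell by 2.85 (SE 0.29, adjusted p = 0.00030) and carboxypeptidase A2-like (Dapma7bEVm009982t1) by 2.86 (SE 0.31, adjusted p = 0.00038).

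Of 36 enzymes that digest carbohydrates, 14 fell and 3 rose, with 9 called lower without starved library 3 and 1 higher without starved library 3 or nutrient rich library 1. With library totals 8 were lower and 5 higher, and the median relative to the median gene was -0.32, against -0.28 with TMM scaling. Their summed level, at 4422, 1828 and 2892 CPM starved and 5554, 3403 and 6073 CPM nutrient rich, overlapped between the groups. Beta-galactosidase-1-like protein 2 (Dapma7bEVm000112t1) stood at 178, 80.6 and 120 CPM against 699, 468 and 870 CPM, and fell by 2.43 (SE 0.36, adjusted p = 0.0016). An endo-beta-1,4-mannanase (Dapma7bEVm014964t1), which breaks a plant cell wall polymer, fell by 2.37 (SE 0.39, adjusted p = 0.0026). Among 43 lipases 5 fell and 4 rose, close to the shares of all genes, and their summed levels overlapped. Pancreatic triacylglycerol lipase-like (Dapma7bEVm009835t1) fell by 1.79 (SE 0.23), and a putative lipase 3 (Dapma7bEVm023118t1) rose by 2.00 (SE 0.14). The number of lipases that fell was 2 without starved library 2 or 3, 3 without nutrient rich library 3, and 8 without nutrient rich library 2. Peritrophic matrix protein (Dapma7bEVm010312t1), which lines the gut, stood at 208, 80.2 and 136 CPM starved and at 496, 387 and 570 CPM nutrient rich, and fell by 1.78 (SE 0.32, adjusted p = 0.0040). In the digestive sums starved library 1 was the highest and starved library 2 the lowest of their group.

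Membrane transporters moved strongly in both directions. Of 128 amino acid and other solute carriers, 29 rose and 26 fell, both above the shares of all genes, with a median of 0.02. A sodium-dependent nutrient amino acid transporter (Dapma7bEVm002214t1), which brings amino acids into cells with sodium, had the clearest rise. It stood at 190, 130 and 148 CPM starved and at 4.47, 2.51 and 4.32 CPM nutrient rich, 41.0-fold higher (log2 fold change 5.36, SE 0.25, adjusted p = 1.9e-05). Its mean in the starved wild type was 161 CPM. Solute carrier family 22 member 15 (Dapma7bEVm018453t1) rose by 1.95 (SE 0.16, adjusted p = 0.00010). The zinc transporter Slc39a7-like (Dapma7bEVm010146t1) fell by 1.32 (SE 0.14, adjusted p = 0.00035), and monocarboxylate transporter 3 (Dapma7bEVm010125t1) by 0.97 (SE 0.14, adjusted p = 0.0013).

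Of the 9 genes of the SLC13 family, sodium-coupled carriers of citrate and related acids or of sulfate, 4 rose and 0 fell (5 and 1 without nutrient rich library 2). INDY (Dapma7bEVm010715t1, named solute carrier family 13 member 5 in the table) is the gene whose reduced expression extends life span in Drosophila. It stood at 35.9, 83.9 and 56.4 CPM starved and at 13.3, 4.02 and 11.7 CPM nutrient rich. The groups did not overlap, and it rose by 2.59 (SE 0.45, adjusted p = 0.0033) with library 2 and by 2.23 without. The mean in the starved wild type was 1.42 CPM, below every mutant library. Solute carrier family 13 member 4 (Dapma7bEVm010407t1) rose by 1.96 (SE 0.25, adjusted p = 0.00078). A separate gene named I'M NOT DEAD yet protein (Dapma7bEVm023672t1) was called higher too. With 1 mutant library left out at a time it rose by 1.755 to 2.068.

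Genes that move or split sugar changed in both directions, with 9 of 41 higher and 6 lower (11 and 10 without nutrient rich library 2, and 7 and 7 without starved library 1). Sugar transporter 8 (Dapma7bEVm003185t1) stood at 209, 342 and 288 CPM against 24.2, 17.2 and 24.4 CPM, 12.7-fold higher (log2 fold change 3.67, SE 0.22, adjusted p = 3.5e-05). Trehalase (Dapma7bEVm005872t1), which splits the blood sugar trehalose, rose by 2.03 (SE 0.17, adjusted p = 0.00013). Acid trehalase-like protein 1 (Dapma7bEVm000714t1) fell by 2.00 (SE 0.27, adjusted p = 0.0011).

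Of 28 genes of glycolysis, gluconeogenesis and glycogen breakdown, 14 fell and 4 rose. Genes named glucose-6-phosphatase 3, whose product releases free glucose, were among the risers. Dapma7bEVm001974t1 stood at 328, 270 and 276 CPM starved and at 67.9, 20.2 and 62.5 CPM nutrient rich, and rose by 2.53 (SE 0.39, adjusted p = 0.0018). Dapma7bEVm001975t1 rose by 3.69 (SE 0.34, adjusted p = 0.00019) and Dapma7bEVm000949t1 by 2.26 (SE 0.27, adjusted p = 0.00063). The glycolytic enzyme fructose-bisphosphate aldolase (Dapma7bEVm009911t1) stood at 559, 550 and 518 CPM against 1175, 761 and 1094 CPM and fell by 0.90 (SE 0.17, adjusted p = 0.0050). Glycogen phosphorylase (Dapma7bEVm000378t1), which mobilises glycogen, fell by 0.66 (SE 0.14, adjusted p = 0.0077). Scaling by library totals left 5 genes called lower and 4 higher in this list. The calls of the aldolase and of glycogen phosphorylase were lost there.

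Among enzymes of fat metabolism, no list had a larger share called higher than the 11.2% of all genes. Of 31 genes of fatty acid oxidation, 7 fell (22.6%, against 12.2% of all genes) and 2 rose (6.45%). With library totals 1 was lower. Peroxisomal acyl-coenzyme A oxidase genes fell, Dapma7bEVm000399t1 by 0.94 (SE 0.14, adjusted p = 0.0019) and Dapma7bEVm000867t1 by 0.95 (SE 0.16, adjusted p = 0.0029). The call of Dapma7bEVm000399t1 was lost with library totals. Medium-chain acyl-CoA dehydrogenase (Dapma7bEVm001941t1), an enzyme of mitochondrial beta-oxidation, rose by 0.81 (SE 0.10, adjusted p = 0.00078). Of 19 genes of fatty acid synthesis, elongation and desaturation, 3 fell (15.8%) and 2 rose (10.5%), near the shares of all genes. Leaving out 1 mutant library at a time gave 3 to 5 lower and 1 to 4 higher. The desaturase Dapma7bEVm028493t1, an acyl-CoA Delta(11) desaturase-like gene, stood at 74.5, 74.7 and 66.4 CPM against 254, 251 and 228 CPM, and fell by 1.76 (SE 0.12, adjusted p = 4.8e-05).

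Nuclear genes of the respiratory chain and ATP synthase had no called change. Among the 58 tested edgeR, DESeq2 and limma-voom called 0 each, and 2 had an unadjusted p under 0.05. The median log2 fold change was -0.02. The most abundant member, the mitochondrial ATP synthase subunit beta (Dapma7bEVm015205t1), had a log2 fold change of -0.09 (SE 0.12, adjusted p = 0.65). The summed level was 11480, 12000 and 11510 CPM starved and 13820, 9470 and 12700 CPM nutrient rich, so the groups overlapped. Of 24 genes of the citrate cycle 2 fell and 0 rose, with 5 lower without nutrient rich library 2. Of 11 genes of the mitochondrial genome 1 fell, NADH dehydrogenase subunit 2 (Dapma7bEVm009229t1), at 257, 345 and 316 CPM against 615, 610 and 605 CPM (log2 fold change -0.9951, SE 0.15, adjusted p = 0.0015).

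Genes of the translation machinery were lower together, by small amounts. Of 82 cytosolic ribosomal protein genes, 50 fell and 0 rose, with a median of -0.64. This count depended on libraries and on scaling. It was 25 without nutrient rich library 2, 31 without starved library 2 and 33 without starved library 3, and 5 with library totals, where the median was -0.27 and that of all genes had moved upward. Relative to the median gene the list stood at -0.57 and -0.56 under those scalings. The summed level was 46430, 42300 and 43080 CPM starved and 70100, 81050 and 60150 CPM nutrient rich. The acidic ribosomal protein P0 (Dapma7bEVm009919t1) stood at 1802, 1627 and 1636 CPM against 2970, 3685 and 2469 CPM, and fell by 0.85 (SE 0.16, adjusted p = 0.0057), a call lost with library totals. Ribosomal protein L3 (Dapma7bEVm010154t1) fell by 0.85 (SE 0.16, adjusted p = 0.0055), likewise lost with library totals.

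Mitochondrial ribosomal proteins followed with 22 of 74 lower and 0 higher. The count was 14 without starved library 1 or 2, 10 without starved library 3, and 2 with library totals. Of 53 translation factors 18 fell and 2 rose, with 3 lower under library totals and 0 higher without starved library 2 or 3. Elongation factor 1-delta (Dapma7bEVm001301t1) stood at 206, 196 and 195 CPM against 460, 401 and 349 CPM, and fell by 1.02 (SE 0.13, adjusted p = 0.00079). Of 78 ribosome biogenesis genes 5 were called lower, a share below that of all genes. No such call was left without nutrient rich library 2 or without starved library 2, 1 was left without starved library 1 or 3, 2 without nutrient rich library 1, and 14 were made without nutrient rich library 3.

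Of 56 heat shock proteins and chaperones tested, 20 fell and 1 rose. Calreticulin (Dapma7bEVm001525t1), which folds secreted glycoproteins, stood at 436, 373 and 383 CPM starved and at 1218, 1027 and 995 CPM nutrient rich, and fell by 1.44 (SE 0.13, adjusted p = 0.00018). Heat shock 70 kDa protein cognate 3 (Dapma7bEVm003115t1), the endoplasmic reticulum Hsp70 of insects, fell by 1.36 (SE 0.19, adjusted p = 0.0012). The cytosolic cognate 4 (Dapma7bEVm003127t1) stood at 657, 677 and 630 CPM against 865, 1405 and 855 CPM. Its fall by 0.67 (SE 0.20, adjusted p = 0.034) was 0.39 and not called without nutrient rich library 2. It was not called without any 1 starved mutant library either. The number of chaperones called lower was 12 without starved library 1 or 2 or nutrient rich library 2, 9 without starved library 3, and 5 with library totals. Of 41 proteasome genes 8 fell and 0 rose. That count was 5 without nutrient rich library 1, 15 without library 2, 13 without library 3, and 1 with library totals.

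Most of the called genes of nutrient sensing were higher. Of 49 genes of insulin, TOR and energy sensing, 8 rose (16.3%, against 11.2% of all genes). In the other direction 1 fell (2.04%, against 12.2% of all genes), and the median was 0.01. Insulin receptor substrate 1 (Dapma7bEVm004503t1), which passes on the signal of the insulin receptor, stood at 196, 181 and 173 CPM starved and at 61.8, 49.5 and 63.7 CPM nutrient rich. It rose by 1.65 (SE 0.14, adjusted p = 0.00013). Insulin receptor-like genes rose too, Dapma7bEVm009862t1 by 1.21 (SE 0.19, adjusted p = 0.0021) and Dapma7bEVm009863t1 by 1.07 (SE 0.13, adjusted p = 0.00061). Forkhead box protein O (Dapma7bEVm005483t1), the transcription factor that insulin signalling restrains, rose by 1.45 (adjusted p = 0.00037) and was picked out after its value was seen. The kinase mTOR (Dapma7bEVm000341t1), likewise picked out, was not called (log2 fold change -0.13, adjusted p = 0.46). The count that rose was 5 without starved library 2 or 3 or nutrient rich library 1, and 4 without nutrient rich library 3. The fall was lost without starved library 1 or 2 or nutrient rich library 2.

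Of 23 autophagy genes, which serve the breakdown of a cell's own components, 6 rose (26.1%, against 11.2% of all genes) and 2 fell (8.7%, against 12.2%). The count lower was 1 without nutrient rich library 2 and 0 with library totals. The WD repeat domain phosphoinositide-interacting protein 4-like gene (Dapma7bEVm003347t1) stood at 61.8, 73.3 and 68.6 CPM against 21.8, 23.9 and 25.6 CPM, and rose by 1.51 (SE 0.13, adjusted p = 0.00013). Autophagy-related protein 2 homolog B (Dapma7bEVm000117t1), a lipid transfer protein of the forming autophagosome, rose by 1.10 (SE 0.11, adjusted p = 0.00025). Autophagy-related protein 13 (Dapma7bEVm005175t1), part of the kinase complex that starts the process, fell by 0.80 (SE 0.14, adjusted p = 0.0036), a call lost with library totals.

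Of 52 lysosomal enzymes tested 10 fell (19.2%, against 12.2% of all genes) and 6 rose (11.5%, close to the 11.2% of all genes). The count that fell was 6 without starved library 3 and 15 without nutrient rich library 2. With library totals 9 were lower and 10 higher, and the median relative to the median gene was -0.097, against -0.104 with TMM scaling. Cathepsin L2 (Dapma7bEVm001332t1), a cysteine protease, stood at 139, 183 and 153 CPM against 525, 608 and 659 CPM, and fell by 1.92 (SE 0.19, adjusted p = 0.00025). Its mean in the starved wild type, 603 CPM, was within the nutrient rich mutant range. Lysozyme 2 (Dapma7bEVm007132t1) rose by 1.52 (SE 0.20, adjusted p = 0.00091).

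Genes of ecdysteroid signalling, the moulting hormone pathway, changed in both directions, with 10 of 30 higher and 6 lower (12 and 6 without nutrient rich library 2). Ecdysteroids drive the moult through a cascade of nuclear receptors, in which HR3 comes before FTZ-F1 in insects. The FTZ-F1-like gene ftz-f1 (Dapma7bEVm011018t1) stood at 46.3, 79.6 and 62.4 CPM starved and at 18.3, 30.9 and 17.6 CPM nutrient rich, and rose by 1.50 (SE 0.27, adjusted p = 0.0038). HR3 (Dapma7bEVm009766t1) went the other way, with 1.03, 2.08 and 1.55 CPM against 4.765, 19.99 and 20.42 CPM, and fell by 3.25 (SE 0.53, adjusted p = 0.0025). E75 (Dapma7bEVm015060t1), an early ecdysone-induced receptor, rose by 1.14 (SE 0.17, adjusted p = 0.0017). Cytochrome P450 18a1 (Dapma7bEVm003686t1), which inactivates ecdysteroids, stood at 63.5, 93.6 and 80.3 CPM against 19.0, 17.7 and 17.7 CPM, and rose by 2.13 (SE 0.23, adjusted p = 0.00038). Eclosion hormone (Dapma7bEVm007374t1), a neuropeptide that triggers shedding of the cuticle in insects, stood at 29.0, 48.3 and 37.8 CPM against 1.79, 0.503 and 0.842 CPM. It was 35.4-fold higher (log2 fold change 5.15, SE 0.41, adjusted p = 9.4e-05), with a mean of 4.43 CPM in the starved wild type.

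Cuticle proteins, which with chitin form the exoskeleton, rose in number more than any other list. Of 130 tested, 49 rose and 16 fell, with a median of 1.65 (67 and 16, median 2.06, without nutrient rich library 2). Their summed level hardly differed, at 8190, 10130 and 9055 CPM starved and at 10860, 6978 and 9156 CPM nutrient rich. A putative cuticular protein 72Eb (Dapma7bEVm015211t1) stood at 895, 2850 and 1880 CPM starved, at 1.69, 175 and 63.5 CPM nutrient rich and at a mean of 11.4 CPM in the starved wild type. It rose by 4.55 (SE 1.30, adjusted p = 0.032), or 5.85 without nutrient rich library 2. The call was lost without starved library 2 or 3 or nutrient rich library 3. Another gene of the same name (Dapma7bEVm027612t1) stood at 472, 141 and 281 CPM against 2145, 1402 and 1782 CPM, and fell by 2.58 (SE 0.39, adjusted p = 0.0017).

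The nutrient rich libraries differed from each other in several of these genes. Endocuticle structural glycoprotein SgAbd-1 (Dapma7bEVm010637t1) stood at 120, 312 and 215 CPM starved and at 0, 10.3 and 5.37 CPM nutrient rich, and rose by 5.39 (SE 0.97, adjusted p = 0.0039), or 6.35 without library 2. The cuticular protein Dapma7bEVm018568t1 stood at 16.51, 24.18 and 17.96 CPM against 0.0993, 0.377 and 0.526 CPM, and rose by 5.84 (SE 0.55, adjusted p = 0.00021). Some genes that fell were also low in nutrient rich library 1. Cuticle protein CB5 (Dapma7bEVm009997t1) stood at 0, 0 and 0.0864 CPM starved and at 2.68, 23.4 and 37.6 CPM nutrient rich. Chitinase 1 (Dapma7bEVm001857t1), which degrades chitin, stood at 0.563, 0 and 0.173 CPM against 0.397, 11.3 and 20.2 CPM, so that the groups overlapped at nutrient rich library 1. Its log2 fold change of -5.448 (SE 1.39, adjusted p = 0.020) was not called without starved library 2 or 3 or nutrient rich library 3. The chorion peroxidase-like gene Dapma7bEVm002593t1 stood at 0.188, 0.231 and 0 CPM against 0.397, 15.6 and 19.6 CPM. Where in the moulting cycle the daphnids of each library were was not tested.

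Genes of chitin metabolism and the peritrophic matrix changed in both directions. Of 69 tested, 16 were higher (23.2%, against 11.2% of all genes) and 14 lower (20.3%, against 12.2%), with 9 lower without starved library 3. Chitin synthase 2 (Dapma7bEVm002546t1) stood at 228, 472 and 360 CPM against 96.2, 147 and 123 CPM, and rose by 1.53 (SE 0.27, adjusted p = 0.0035). Probable chitinase 10 (Dapma7bEVm010565t1) stood at 240, 94.9 and 147 CPM against 941, 640 and 909 CPM, and fell by 2.37 (SE 0.32, adjusted p = 0.00099).

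The list of juvenile hormone and methyl farnesoate genes held a gene that was read at only 1 of the food levels. Juvenile hormone epoxide hydrolase 1-like (Dapma7bEVm006245t1), of a family that inactivates juvenile hormone in insects, had 0 counts in all 3 starved mutant libraries and stood at 51.9, 67.1 and 58.4 CPM in the nutrient rich mutant. Set against 3 counts over the starved group, it was at least 695-fold lower (adjusted p = 0.00012). It also had 0 counts in the starved wild type. Of the 13 genes of the list, 4 fell and 0 rose, with 2 lower without starved library 3. Methyl farnesoate epoxidase-like (Dapma7bEVm030571t1) stood at 1.97, 0.924 and 1.99 CPM against 6.06, 5.66 and 6.84 CPM and fell by 1.93 (SE 0.41, adjusted p = 0.0084). In insects this enzyme makes juvenile hormone from methyl farnesoate.

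Among genes of DNA methylation the mutated gene was the only called member. DNMT3.1 rose by 2.91 (SE 0.38, adjusted p = 0.00091), 7.54-fold, and by 2.62 without nutrient rich library 2, with each starved library above each nutrient rich library. DNMT1 (Dapma7bEVm005001t1), which keeps methylation through replication in mammals, stood at 15.5, 30.0 and 24.6 CPM against 17.2, 26.4 and 16.5 CPM (log2 fold change 0.22, SE 0.30, adjusted p = 0.63). DNMT3.2 (Dapma7bEVm011900t1) stood at 2.16, 1.23 and 1.04 CPM against 1.49, 2.64 and 2.84 CPM (log2 fold change -0.65, SE 0.38, adjusted p = 0.25). Both pairs of groups overlapped. Without nutrient rich library 2, 4 of the 8 genes of the list were higher. The tobi gene (Dapma7bEVm003111t1), an alpha-glucosidase that insulin and glucagon-like signals control in Drosophila, stood at 55.4, 25.7 and 40.7 CPM against 72.67, 72.04 and 82.32 CPM. It fell by 0.90 (SE 0.27, adjusted p = 0.039), a call lost without starved library 2 or 3, without nutrient rich library 1 or 3, and with library totals.

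**Figure D4:**
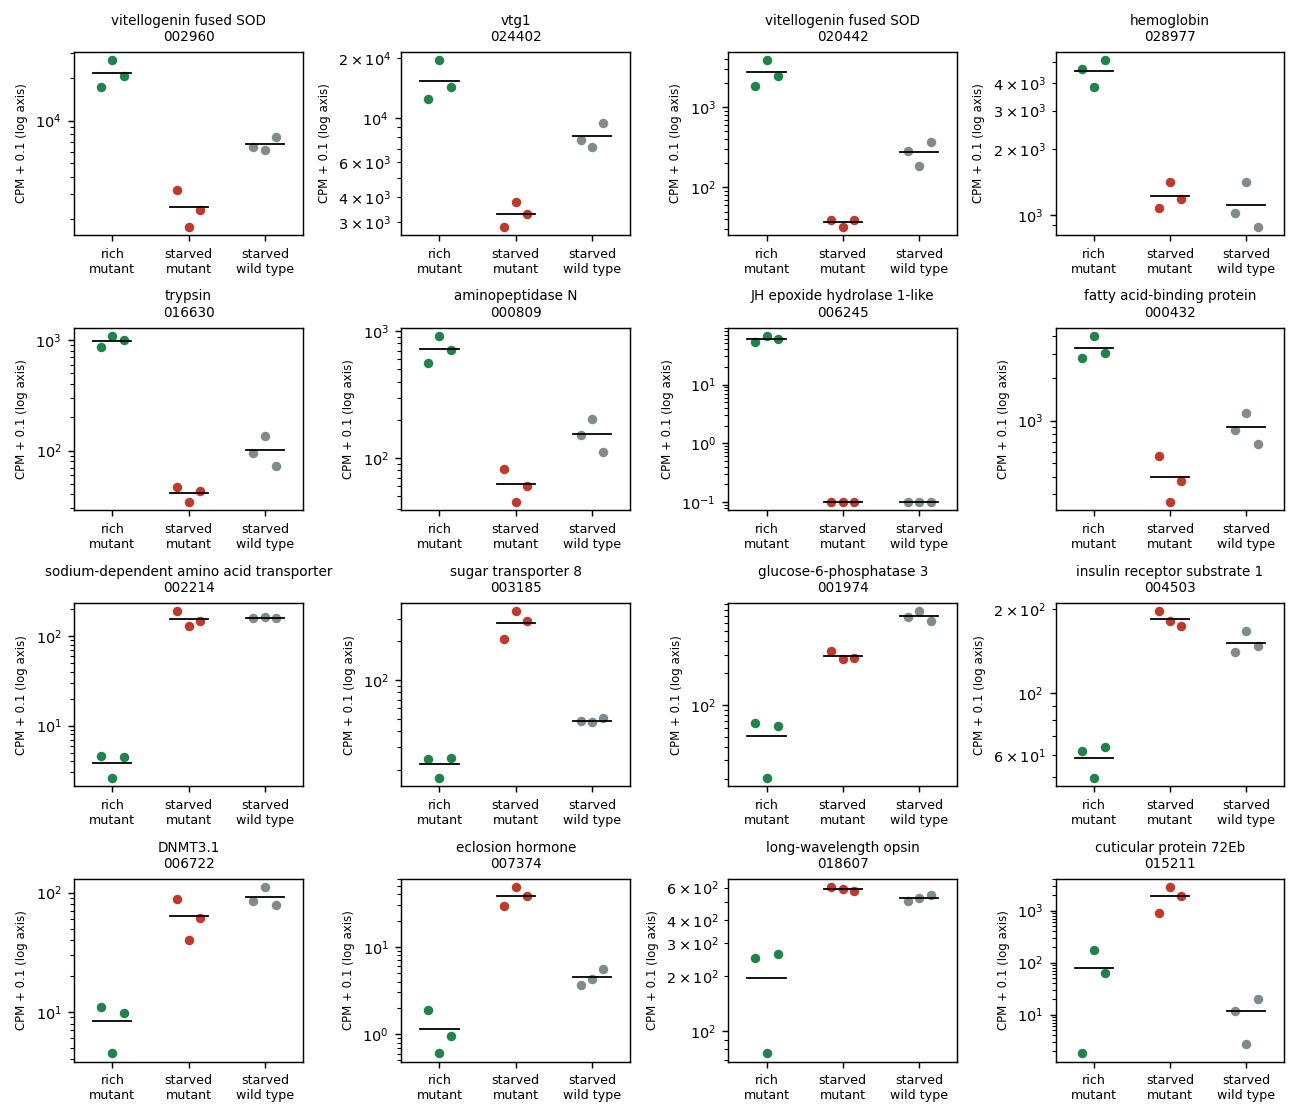
CPM (with 0.1 added, log axis) of 16 genes in each library of the nutrient rich mutant, starved mutant and starved wild type groups, each point a library in the order 1 to 3 and each line the group mean. The 16 genes were picked from the called genes. The starved and nutrient rich mutant libraries do not overlap in any of them, as in 97.9% of called features and 40.3% of all features tested. Cuticular protein 72Eb stood at 895 to 2850 CPM in the starved mutant and at a mean of 11.4 CPM in the starved wild type.

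Haemoglobin genes, whose products carry oxygen in the blood of Daphnia, were lower as a family. All 12 tested had a negative log2 fold change, 6 were called lower and 0 higher (8 lower without nutrient rich library 2), and the negative direction of the list's median was kept with library totals. Haemoglobin Dapma7bEVm028977t1 stood at 1078, 1420 and 1176 CPM starved and at 4663, 3834 and 5101 CPM nutrient rich, and fell by 1.89 (SE 0.21, adjusted p = 0.00048). The most abundant member, 2-domain haemoglobin Dapma7bEVm020057t1, stood at 4308, 2305 and 3025 CPM against 7133, 2958 and 6714 CPM. It did not pass the test (log2 fold change -0.80, SE 0.34, adjusted p = 0.12), and was called at -1.11 without nutrient rich library 2. Haemoglobin Dapma7bEVm011064t1 stood at 0.469, 0.539 and 0.777 CPM against 33.7, 18.9 and 37.6 CPM, and fell by 5.63 (SE 0.36, adjusted p = 3.9e-05). Of 6 ferritins, which store iron, 3 fell and 1 rose, the rise being lost without starved library 1 or 3. Ferritin heavy chain (Dapma7bEVm005357t1) stood at 4.79, 2.23 and 3.28 CPM against 47.0, 114 and 89.4 CPM, and fell by 4.61 (SE 0.45, adjusted p = 0.00024).

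Of 44 conjugating enzymes of detoxification, 18 fell and 4 rose, with 2 higher without starved library 2 or 3. Glutathione S-transferase 1 (Dapma7bEVm000591t1) stood at 54.8, 38.3 and 45.2 CPM against 123, 228 and 138 CPM, and fell by 1.82 (SE 0.28, adjusted p = 0.0019). A sulfotransferase 1B member (Dapma7bEVm008187t1) rose by 2.54 (SE 0.21, adjusted p = 0.00013). Of 64 ABC transporters 22 fell and 6 rose. With library totals 14 were lower and 10 higher, and the median relative to the median gene was -0.38, against -0.36 with TMM scaling. A gene named for subfamily ABCH, which is found in arthropods (Dapma7bEVm004062t1), stood at 110, 123 and 116 CPM against 27.2, 11.3 and 24.2 CPM, and rose by 2.47 (SE 0.28, adjusted p = 0.00050). A multidrug resistance-associated protein (Dapma7bEVm009449t1) fell by 1.26 (SE 0.15, adjusted p = 0.00061). Of 41 cytochrome P450 genes 6 rose (14.6%) and 7 fell (17.1%), against 11.2% and 12.2% of all genes. The count that fell was 4 without starved library 3, and with library totals 8 were higher and 4 lower. Cytochrome P450 4c3 (Dapma7bEVm002285t1) stood at 115, 168 and 138 CPM against 18.8, 14.7 and 19.0 CPM, and rose 8.01-fold (log2 fold change 3.00, SE 0.18, adjusted p = 3.2e-05).

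Of 77 genes of clotting, prophenoloxidase and lectins, the arthropod immune genes, 20 fell and 11 rose, and with library totals 11 were lower and 18 higher. The counts that fell were 12 and 13 without starved library 2 and 3, and the count that rose was 7 without starved library 1. Without nutrient rich library 2, 27 fell and 14 rose. The C-type lectin Dapma7bEVm027719t1 stood at 55.7, 15.7 and 32.2 CPM against 560, 780 and 627 CPM, and fell by 4.25 (SE 0.47, adjusted p = 0.00043). The galactose-binding C-type lectin Dapma7bEVm010422t1 stood at 480, 1009 and 760 CPM against 30.7, 180 and 69.8 CPM, and rose by 3.01 (SE 0.58, adjusted p = 0.0057). Of 32 antioxidant enzymes 6 rose (18.8%, against 11.2% of all genes) and 5 fell (15.6%, against 12.2%). Leaving out 1 mutant library at a time gave 2 to 6 higher and 3 to 8 lower.

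Markers of muscle and of the eye were called higher in the starved mutant more often than lower. Of 35 muscle genes 15 rose and 0 fell, with a median of 0.73 (17 and 0 without nutrient rich library 2). The summed level of the list was 24020, 23410 and 23000 CPM starved and 13710, 16910 and 13760 CPM nutrient rich, and no member was at 0 in either group. Myosin light chain alkali (Dapma7bEVm010446t1) stood at 2240, 2265 and 2217 CPM against 1279, 1190 and 1265 CPM, and rose by 0.85 (SE 0.11, adjusted p = 0.00094). Paramyosin (Dapma7bEVm010116t1), a thick filament protein of invertebrates, rose by 0.80 (SE 0.13, adjusted p = 0.0024). Myosin heavy chain (Dapma7bEVm018399t1), the most abundant gene that rose, stood at 6859, 6196 and 6290 CPM against 3018, 4962 and 3127 CPM. Its rise by 0.80 (SE 0.20, adjusted p = 0.020) was 1.07 without nutrient rich library 2, and was lost without any other 1 of the mutant libraries.

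Of 43 genes of opsins and phototransduction, 25 rose and 1 fell, with a median of 1.123 (26 and 1, median 1.018, without nutrient rich library 2). Their summed level was 2712, 2563 and 2464 CPM starved and 1286, 666 and 1261 CPM nutrient rich. The long-wavelength opsin Dapma7bEVm018607t1, a visual pigment, stood at 604, 590 and 576 CPM against 248, 75.9 and 262 CPM. It rose by 1.59 (SE 0.38, adjusted p = 0.014), or 1.21 without library 2. A further long-wavelength opsin (Dapma7bEVm003312t1) rose by 1.45 (SE 0.23, adjusted p = 0.0022). Chaoptin (Dapma7bEVm007201t1), a photoreceptor surface protein of Drosophila, was the gene that fell, by 1.90 (SE 0.27, adjusted p = 0.0013). Several opsin genes also share a name, and their single values are uncertain in the way the vitellogenins' are.

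Of 142 genes of neurons and neuropeptides 22 rose (15.5%, against 11.2% of all genes) and 6 fell, with a median of 0.30. The count that rose was 11 without starved library 1 or 3, 10 without starved library 2 and 36 without nutrient rich library 2, and 3 to 10 fell across the 6 fits that each left out a mutant library. Their summed level was 2595, 2609 and 2583 CPM starved and 2270, 2066 and 2371 CPM nutrient rich. FMRFamide receptor (Dapma7bEVm028027t1), a neuropeptide receptor, stood at 64.6, 121 and 97.8 CPM against 22.2, 18.2 and 23.0 CPM, and rose by 2.16 (SE 0.23, adjusted p = 0.00034). The kainate-type glutamate receptor Dapma7bEVm000475t1 rose by 1.29 (SE 0.12, adjusted p = 0.00019). Of 10 genes of the circadian clock 3 rose and 0 fell (5 and 1 without nutrient rich library 2), and period (Dapma7bEVm010023t1), a core repressor of the clock, stood at 275, 239 and 249 CPM against 127, 111 and 125 CPM (log2 fold change 1.07, SE 0.12, adjusted p = 0.00046). The medians of the muscle, opsin, neuron and clock lists were positive under each scaling. The part of a changed tissue make-up in the muscle, eye, neuron and yolk results was not tested.

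The genes with the steepest changes were mostly near 0 in 1 of the groups. Of the genes tested, 46 had 0 counts in all nutrient rich and 52 in all starved mutant libraries. Epithelial chloride channel protein-like (Dapma7bEVm027630t1) stood at 46.0, 17.9 and 12.7 CPM starved and had 0 counts nutrient rich, at least 234-fold higher when set against 3 counts over that group (adjusted p = 0.00067). Succinate dehydrogenase assembly factor 2 (Dapma7bEVm008624t1), which helps to build a respiratory enzyme, stood at 5.82, 9.93 and 7.86 CPM against 0 counts, at least 72.2-fold higher (adjusted p = 0.00033). The Gliomedin-like gene Dapma7bEVm023901t1 was at least 64.3-fold higher (adjusted p = 0.00092), and had 0 counts in the starved wild type as well. Formin-2 (Dapma7bEVm030415t1) stood at 0, 16.7 and 13.3 CPM starved, so a starved library matched the 0 counts of the nutrient rich group. Its call (adjusted p = 0.034) was lost without starved library 2 or 3 or nutrient rich library 1 or 3. Glutathione peroxidase-like (Dapma7bEVm011942t1), with 10.3, 29.6 and 20.6 CPM against 0 counts, lost its call (adjusted p = 0.027) without the same libraries. Stromal cell-derived factor 2 (Dapma7bEVm004427t1), a protein of the endoplasmic reticulum, stood at 0.657, 0 and 0 CPM against 52.2, 18.9 and 40.7 CPM, and fell by 7.45 (SE 0.82, adjusted p = 0.00043).

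Abundant genes outside the lists rose as well. A tissue factor pathway inhibitor gene (Dapma7bEVm001049t1), named for a protease inhibitor, stood at 3267, 1970 and 2466 CPM starved and at 242, 358 and 267 CPM nutrient rich, and rose by 3.15 (SE 0.23, adjusted p = 7.5e-05). Papilin-like (Dapma7bEVm010107t1), an extracellular matrix protein, rose by 1.84 (SE 0.21, adjusted p = 0.00051). The RNA helicase DDX5 (Dapma7bEVm001477t1) stood at 2794, 2725 and 2711 CPM against 1076, 1680 and 1112 CPM, and rose by 1.09 (SE 0.18, adjusted p = 0.0029).

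Some abundant genes were called only through nutrient rich library 2. The unnamed genes Dapma7bEVm646290t1 and Dapma7bEVm645287t1 were called lower by 2.98 (adjusted p = 0.044) and 2.83 (adjusted p = 0.049). Without that library the falls were 0.76 and 0.69 and were not called. Starved levels of Dapma7bEVm646290t1 were 1562, 1860 and 1562 CPM, close to the 1721 CPM of nutrient rich library 1. Both calls were also lost without any 1 of the starved libraries. Ribosomal protein L19 (Dapma7bEVm004430t1) fell by 0.75 (SE 0.20, adjusted p = 0.023) with and by 0.49 without library 2, where it was not called, nor was it called without starved library 2 or 3.

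By Gene Ontology (GO) annotation, 10530 of the tested genes carried a term, of which 9.62% were called higher and 14.5% lower, and 346 terms held at least 20 of them. The term with the highest share of genes called higher was detection of visible light, with 14 of 21 genes higher and 0 lower and a median log2 fold change of 1.18. Extracellular matrix had 41 of 104 higher and 8 lower, and structural constituent of cuticle 57 of 151 higher and 16 lower. Regulation of receptor activity followed with 21 of 57 higher and 2 lower, and growth factor activity with 11 of 36 higher and 1 lower. G-protein coupled receptor signaling pathway had 33 of 113 higher and 7 lower. Axon had 8 of 29 higher and 0 lower, and negative regulation of endopeptidase activity, the term of protease inhibitors, 14 of 46 higher and 5 lower. Without nutrient rich library 2 these terms had 16, 47, 79, 25, 15, 38, 11 and 15 genes higher, in the same order. With 1 mutant library left out at a time the lowest counts were 10, 32, 45, 13, 8, 19, 4 and 11.

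The terms with the highest shares called lower belonged to the ribosome, to secretion and to lipid transport. Cytosolic large ribosomal subunit had 26 of 46 genes lower and 0 higher, and cytosolic small ribosomal subunit 17 of 34 lower and 0 higher. Without nutrient rich library 2 these counts were 13 and 9, and with library totals 2 and 1. Lipid transporter activity had 18 of 33 lower and 1 higher, with 17 lower without library 2 and 15 lower with library totals. Golgi organization had 12 of 24 lower and 0 higher, and retrograde vesicle-mediated transport, Golgi to ER 10 of 20 lower and 0 higher. ER to Golgi vesicle-mediated transport had 18 of 45 lower and 0 higher. Without library 2 the secretion terms had 12, 11 and 18 genes lower, and with library totals 5, 3 and 8. Metallocarboxypeptidase activity had 13 of 33 lower and 2 higher, and copper ion binding 12 of 30 lower and 6 higher. Terms share genes, so their counts are not independent of each other.

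**Figure D5:**
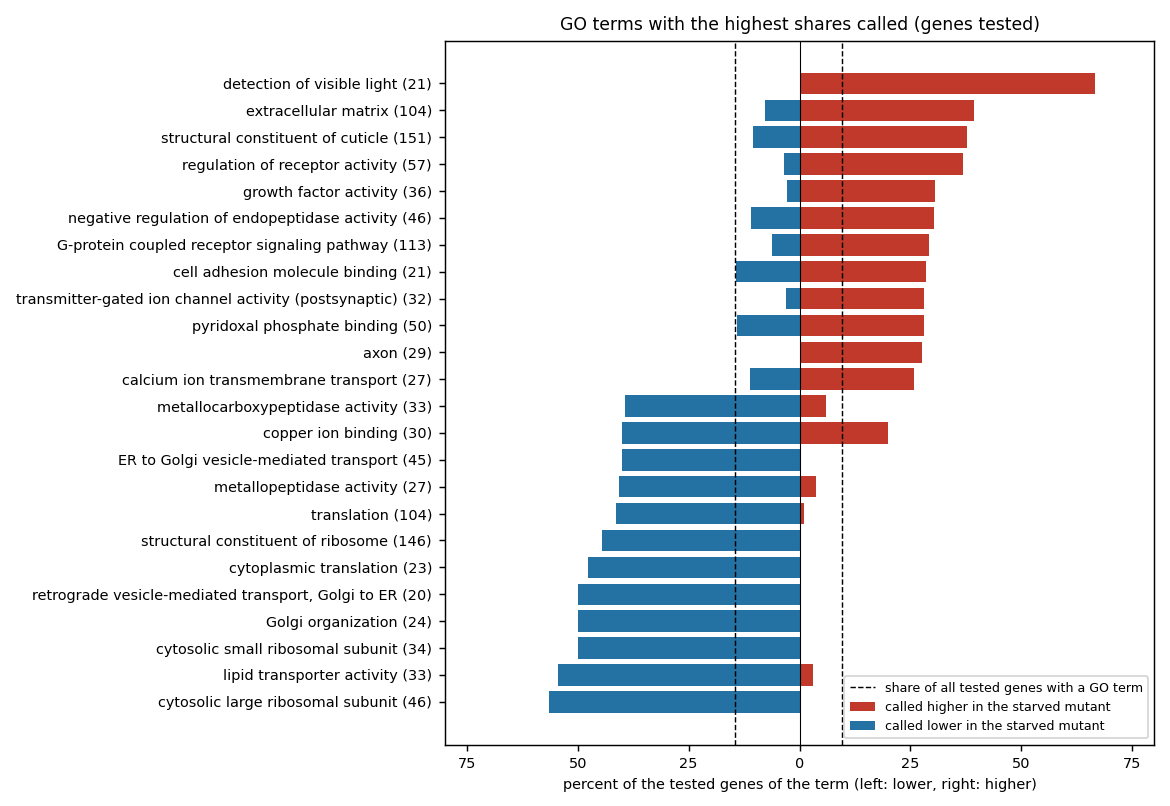
Percent of the tested genes of 24 GO terms that were called lower (blue, left) or higher (red, right) in the starved mutant, the 12 terms with the highest share in each direction after terms with largely the same called genes were left out. The dashed lines mark the shares of all tested genes with a GO term, 14.5% lower and 9.62% higher.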

How the data were processed

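Total RNA of pooled daphnids was sequenced as poly(A)-selected paired-end reads. Using CLC Genomics Workbench and the wFleaBase genome of D. magna, the authors deposited total read counts and RPKM values for each feature, with gene names and GO terms. The deposited RPKM values were not used for tests. The authors' comparison tables hold their own fold changes and p-values between groups and were not used. No column of per-sample values was left unmapped. The count column of nutrient rich library 1 carried KO in its label, unlike its RPKM column, and was assigned by its group and number.

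Counts of 9 libraries were analysed in R 4.3.3 with edgeR 4.0.16 (quasi-likelihood test, TMM scaling, filterByExpr, 3 groups in 1 fit), contrast starved mutant minus nutrient rich mutant. Of 47109 features, 18675 passed the filter. Calls required an adjusted p (Benjamini-Hochberg) below 0.05 together with a change of at least 1.5-fold. The SE is the log2 fold change divided by the square root of F. For genes with several features the one with most counts was kept. The labels say that each treatment was repeated 3 times without giving separate days, so p-values measure the spread among these libraries.

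Genes were listed by patterns in their names. Named genes were the 15 largest rises and falls among named genes of at least 10 CPM called with and without nutrient rich library 2, the 10 most abundant called genes in each direction, up to 3 of the most abundant called members of each list and direction (or the most abundant member where none was called), 8 genes the study discusses, named genes with 0 counts in 1 mutant group and at least 5 CPM in the other, and the 5 most abundant named genes whose call depended on library 2. This gave 247 genes, of which a part is described. GO terms needed 20 tested genes, and terms whose called genes overlapped an earlier one by a Jaccard index of 0.6 were left out. Members and lists were chosen with earlier results of these data known. Alternatives were DESeq2 1.42.0, limma-voom 3.58.1, other scalings and filters, other sets of libraries, a replicate block and each library left out. Leaving out mutant libraries other than nutrient rich library 2 for lists and terms was chosen after seeing the data. The edgeR fit was tested on simulated data.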

Additional observations from a re-analysis of the deposited data

How the results depend on the processing

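The quasi-likelihood test called 4319 features. A test against a 1.5-fold change (glmTreat) called 2197, of which 1100 were higher and 1097 lower. Scaling by library totals gave 3446 higher and 1138 lower. Leaving out 1 library at a time gave 2918 to 5449 called features, 1406 to 2761 higher and 1512 to 2688 lower. The other alternatives gave between 3042 calls (the 6 mutant libraries alone) and 6016 calls (limma-voom). The mutant libraries alone without nutrient rich library 2 called 4900. DESeq2 called 4766, DESeq2 size factors gave 4323, at least 1 count 4095 of 36021 features tested, and no minimum fold change 4818. In none of these did a called feature turn its direction. A fit with the replicate number as a block called 3814, of which 1837 were higher and 1977 lower. Whether the replicate numbers pair the samples was not settled. Same-numbered mutant libraries deviated from their group means with correlations of 0.13, 0.18 and 0.01. Each starved library correlated best with the nutrient rich library of its own number, but nutrient rich library 3 correlated best with starved library 1. Correlations this weak cannot decide the question. Of 241 named genes that were called, 153 were called under all 18 alternatives that kept the fold threshold, and 54 lost their call with library totals. At the depth of these libraries, genes near 0 CPM in 1 group have a fold change that the counts bound only from below.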
